A study of Homo sapiens with 4 samples.

Results

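The genes described here are 10 human genes of iron uptake, storage and transport: LCN2, TFRC, FTH1, FTL, SLC40A1, SLC11A2, ACO1, IREB2, NCOA4 and HAMP. They were taken by gene name from a table of 58735 genes, as a set chosen by the fall of LCN2 in the KO libraries. The LCN2 values of the WT and KO libraries were the measured values used, and they are given as a description with no test. RNA was sequenced from HFL1, an established line known as fibroblasts from human fetal lung, in 2 libraries labelled WT and 2 labelled KO. The knocked-out gene is CALU, which encodes calumenin, a protein of the endoplasmic reticulum that binds calcium, and the design asked how its loss affects senescence and fibrosis signalling. The labels give no treatment, time, guide or clone for either group, nor whether replicates were grown as separate cultures. The p-values therefore reflect the variation among 4 libraries alone, some or all of which may be technical.

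Levels are FPKM as deposited, fragments scaled to gene length and to a divisor for each library. Whole reads recovered from them numbered 16173899 to 17715774 per library. The divisor was 1.03 and 1.01 times the recovered reads in WT and 0.990 and 0.986 times in KO. CALU, at chr7:128739292-128771807 on GRCh38, stood at 87.7 and 81.8 FPKM in the WT libraries and at 6.59 and 5.95 FPKM in the KO libraries. Of 10 fibroblast markers, 8 stayed below 1 FPKM in every library, with COL1A2 and POSTN at 0 reads in all 4. The 10 summed to 2.24 and 2.53 FPKM in WT and to 4.78 and 5.40 FPKM in KO. COL1A1 made up most of the higher KO sum, with 0.234 and 0.28 FPKM in WT and 3.04 and 3.16 FPKM in KO, while LUM, PDGFRA and PDGFRB were lower in both KO libraries than in both WT libraries. Most defining markers of the fibroblasts that the line is known as were therefore absent or near 0. The 5 markers of simple epithelia (KRT8, KRT18, KRT19, EPCAM and CDH1) summed to 701 and 808 FPKM in WT and to 1529 and 1759 FPKM in KO. KRT8 and KRT18 made up most of each sum, at 349 and 425 FPKM and 326 and 356 FPKM in WT. EPCAM was low, at 1.57 to 2.04 FPKM over the libraries. CDH1 stood at 6.79 and 8.55 FPKM in WT and at 39.9 and 36.9 FPKM in KO. The part of the marker differences in the results that follow was not tested. Among cell types specialised in iron handling, the summed erythroid markers reached at most 0.453 FPKM and the summed hepatocyte markers at most 1.83 FPKM, both in WT replicate 2. Of 6 macrophage and leukocyte markers, 5 stayed below 1 FPKM in every library, with CD163 and MRC1 at 0 reads. The other was CD14, and the 6 summed to 20.2 and 17.6 FPKM in WT and to 5.88 and 6.53 FPKM in KO. In bulk RNA, fewer cells of a type and less RNA per cell cannot be told apart.

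Cells take up iron bound to transferrin through the transferrin receptor, move it out of endosomes through the transporter DMT1, store it in ferritin, and export it through ferroportin. Cytosolic iron is sensed by the iron regulatory proteins, which bind hairpins in mRNAs called iron-responsive elements when iron is scarce. Binding before the coding sequence blocks translation, as in the ferritins, and binding after it protects the mRNA from decay, as in the transferrin receptor. Lipocalin 2, the LCN2 protein, is a secreted carrier that binds iron held by siderophores and is made by epithelia and neutrophils during inflammation.

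The hairpins tie several members to each other, so the UTRs of all 10 members were searched in GENCODE 29 transcripts for their defining letters. The pattern was an unpaired C, 5 bases of any kind, the loop CAGTGN and 5 bases that pair with those before the loop, G-T pairs allowed. With all 5 pairs it was found in the UTRs of 4 members, TFRC, FTH1, FTL and SLC40A1, against 168 of 19669 coding genes searched (0.854%). With at least 4 pairs it was found in 7 members, adding SLC11A2, ACO1 and IREB2, against 6.01% of the coding genes. A match is a description of letters and not proof of a working element. The sequences below are shown because they are the feature that these transport and storage genes share. They run 5′ to 3′ on the transcript strand as DNA letters, with the loop in capitals, and come from GENCODE 29 on GRCh38.
FTH1, 5′ UTR, chr11:61967575-61967601, minus strand: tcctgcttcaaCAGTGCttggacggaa
FTL, 5′ UTR, chr19:48965336-48965362, plus strand: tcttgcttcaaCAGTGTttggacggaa
SLC40A1, 5′ UTR, chr2:189580662-189580688, minus strand: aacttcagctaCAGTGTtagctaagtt
TFRC site 1, 3′ UTR, chr3:196050464-196050490, minus strand: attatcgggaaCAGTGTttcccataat
TFRC site 2, 3′ UTR, chr3:196050511-196050537, minus strand: tgtatcggagaCAGTGAtctccatatg
TFRC site 3, 3′ UTR, chr3:196050576-196050602, minus strand: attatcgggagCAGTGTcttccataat
TFRC site 4, 3′ UTR, chr3:196050980-196051006, minus strand: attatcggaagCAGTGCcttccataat
SLC11A2, 3′ UTR, chr12:50988270-50988296, minus strand, 4 of 5 pairs: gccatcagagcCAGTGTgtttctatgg
The ferritin and ferroportin matches lie in the first exon, before the coding sequence. The TFRC and SLC11A2 matches lie after it, the SLC11A2 match in 5 of that gene's annotated transcripts.

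LCN2 was the member with the largest difference between the groups. It stood at 78.4 and 101 FPKM in WT and at 3.36 and 5.08 FPKM in KO. The groups lay far apart, and the mean of 89.8 ± 16.1 FPKM in WT was 21.3-fold the KO mean of 4.22 ± 1.22 FPKM (errors are SDs of 2 libraries throughout). The values rest on 2288 and 2650 reads in WT and 94 and 133 reads in KO. On the log2(FPKM + 1) scale, on which low genes appear to change less than they do, the difference was -4.13, which ranked 2 of 14100 genes from the most negative. Leaving out any 1 library gave -4.37 to -3.89. The set was chosen for this fall, so the rank and these differences describe LCN2 and are no test of it. The gene (ENSG00000148346) lies at chr9:128149071-128153455 on the plus strand, and no other annotated gene overlaps it.

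Among 7560 other protein-coding genes that averaged 5 FPKM or more in WT or in KO, 4 had the pattern over the 4 libraries closest to that of LCN2. Likeness was the Euclidean distance between log2(FPKM + 1) values, each gene centred on its own mean. PRSS35, a serine protease-like gene, was closest at a distance of 0.341, with 26.2 and 28.1 FPKM in WT and 0.585 and 0.675 FPKM in KO. ICAM1, an adhesion receptor for leukocytes, followed at 0.641, then CDKN1A, the cell-cycle inhibitor p21, at 0.782. The targeted gene CALU came next at 0.785. These distances mostly record a difference between the groups of like size.

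The LCN2 promoter is shown because LCN2 is known as a target of NF-kB. The 250 bases before each RefSeq start were searched on both strands for GGG, 5 bases of any kind and CC, the framework of an NF-kB site, for CACGTG, an E-box, and for TGACNNNGC, an antioxidant response core. The stretch of the LCN2 window that lies in no annotated exon spans chr9:128149265-128149440 on the plus strand of GRCh38.p14, per RefSeq, and reads 5′ to 3′ as follows, with matches to the NF-kB framework in capitals.
LCN2 promoter: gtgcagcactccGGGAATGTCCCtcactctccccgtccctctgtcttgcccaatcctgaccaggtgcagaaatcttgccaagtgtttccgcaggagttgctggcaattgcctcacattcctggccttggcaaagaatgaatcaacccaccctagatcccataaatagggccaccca
The capitals, at 128149277 to 128149287, hold 2 overlapping matches, 1 on each strand. That framework occurred in 54.4% of 35116 promoter windows, so the match does not set LCN2 apart. The 9 members with a window have 14 windows in all, and 7 of the 9 had a match in 1 or more. CACGTG occurred in 6.3% and TGACNNNGC in 10.9% of windows, and neither in a window of a member.

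**Figure D1:**
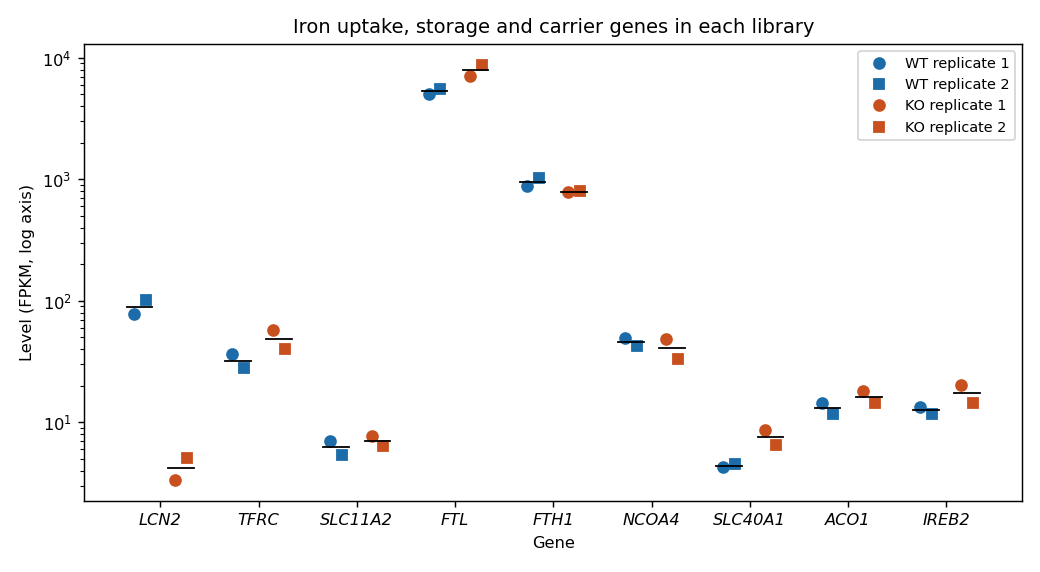
Level of each measured member in each library, in FPKM on a log axis, with a point per library (circles replicate 1, squares replicate 2) and a line at each group mean. LCN2 falls from 78.4 and 101 FPKM to 3.36 and 5.08 FPKM, while the other 8 genes keep their order of magnitude. HAMP, with 1 read in all, is not drawn.

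Of the members other than LCN2, 8 had at least 1 FPKM in at least 2 libraries and were tested. The threshold was a Benjamini-Hochberg adjusted p under 0.05 in limma, adjusted over all 14100 genes, and SLC40A1 alone passed it, upward. Of all genes tested 23.3% were called, 12.1% higher and 11.1% lower in KO, so 1 call among 8 genes is not above the background share. Both KO libraries lay above both WT libraries for 5 of the 8 (TFRC, FTL, SLC40A1, ACO1 and IREB2), against 34.4% of all genes tested. They lay below for 1, FTH1, against 31.3%. The median difference of the 8 was 0.36 on the log2 scale, beside 0.027 for all genes tested. With 2 libraries in each group the smallest two-sided p of an exact permutation test is 0.333, so values outside the limma fit, such as ratios, were not tested. Where 1 library is left out below, its group has no replicate, and the spread comes from the other group alone. Calls gained or lost in those fits are a description and cannot show that a difference holds or fails.

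SLC40A1 encodes ferroportin, the exporter of cellular iron (ENSG00000138449, chr2:189560579-189583758, minus strand). Its level was 4.30 and 4.54 FPKM in WT and 8.61 and 6.54 FPKM in KO. The lowest KO library stood above the highest WT library, and the WT libraries lay close to each other. The KO mean of 7.58 ± 1.46 FPKM was 1.71-fold the WT mean of 4.42 ± 0.166 FPKM, with a log2 difference of 0.65 (SE 0.16, limma adjusted p = 0.0414). The call was lost without WT replicate 1, WT replicate 2 or KO replicate 1 (limma adjusted p = 0.159, 0.102 and 0.0875) and with no filter on low values (limma adjusted p = 0.124).

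HAMP encodes hepcidin, the liver hormone that makes ferroportin be degraded. It had 1 read in WT replicate 1 and 0 in the other libraries, where 3 reads would be 0.0608 FPKM or less, so it was not detectable at this depth. The measured members with an uptake role were TFRC, the transferrin receptor (ENSG00000072274, chr3:196027183-196082189, minus strand), and SLC11A2, the iron transporter DMT1 (ENSG00000110911, chr12:50979401-51028566, minus strand). TFRC stood at 36.5 and 27.99 FPKM in WT and at 57.4 and 40.2 FPKM in KO. The groups did not overlap, but the gap between the nearest libraries was smaller than the spread within KO. The KO mean was 48.8 ± 12.1 FPKM and the WT mean 32.3 ± 6.05 FPKM, a log2 difference of 0.57 (SE 0.23, limma adjusted p = 0.128). Without KO replicate 2 the TFRC difference was 0.82 and passed (limma adjusted p = 0.0375), but it was 0.32 without KO replicate 1 and 0.39 without WT replicate 2 (limma adjusted p = 0.304 and 0.468).

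SLC11A2 stood at 7.004 and 5.44 FPKM in WT and at 7.67 and 6.45 FPKM in KO. Its groups overlapped, and the log2 difference was 0.16 (SE 0.17, limma adjusted p = 0.526). Without WT replicate 2 the difference was 0.0060, and without KO replicate 1 it was 0.055. Replicate 2 was the lower library of both genes in both groups.

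The ferritin chains were the most abundant members by far, and on the per-length FPKM scale they differed between the groups in opposite directions without passing the test. Ferritin is a hollow shell built of heavy chains, which oxidise iron, and light chains, which help lay it down as mineral. FTL, the light chain (ENSG00000087086, chr19:48965301-48966878, plus strand), stood at 5072 and 5579 FPKM in WT and at 7075 and 8775 FPKM in KO. Both KO libraries were above both WT libraries, with a log2 difference of 0.57 (SE 0.27, limma adjusted p = 0.186). FTL ranked 6 of 14100 genes by mean level. With precision weights on the recovered reads the same difference passed (limma adjusted p = 0.0271).

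FTH1, the heavy chain (ENSG00000167996, chr11:61959718-61967660, minus strand), stood at 889.5 and 1019 FPKM in WT and at 783 and 799 FPKM in KO. Both KO libraries were below both WT libraries, with a log2 difference of -0.27 (SE 0.19, limma adjusted p = 0.36), and without WT replicate 2 it was -0.17. In FPKM, the light chain exceeded the heavy chain 5.70-fold and 5.48-fold in the WT libraries and 9.03-fold and 10.98-fold in the KO libraries. The size of this excess depends on the gene lengths used, 878 bases for FTL and 2030 for FTH1. The mean ratio was 5.59 ± 0.160 in WT and 10.004 ± 1.38 in KO. The nearest libraries of the groups differed by more than the spread within either, and the ratio was formed after the values were seen, so it carries no test. Reads of both chains together made up 0.645% and 0.706% of the WT libraries and 0.772% and 0.919% of the KO libraries.

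Ferritin genes have many processed copies in the genome, and counting can split reads between a gene and its copies. The 25 annotated FTH1 pseudogenes summed to 470 and 369 reads in WT and 321 and 233 in KO, which is 0.876% to 1.43% of the FTH1 reads. The 16 annotated FTL pseudogenes summed to 10 to 26 reads per library, at most 0.0239% of the FTL reads. Adding the levels of these copies to their parent genes left both directions as they were.

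**Figure D2:**
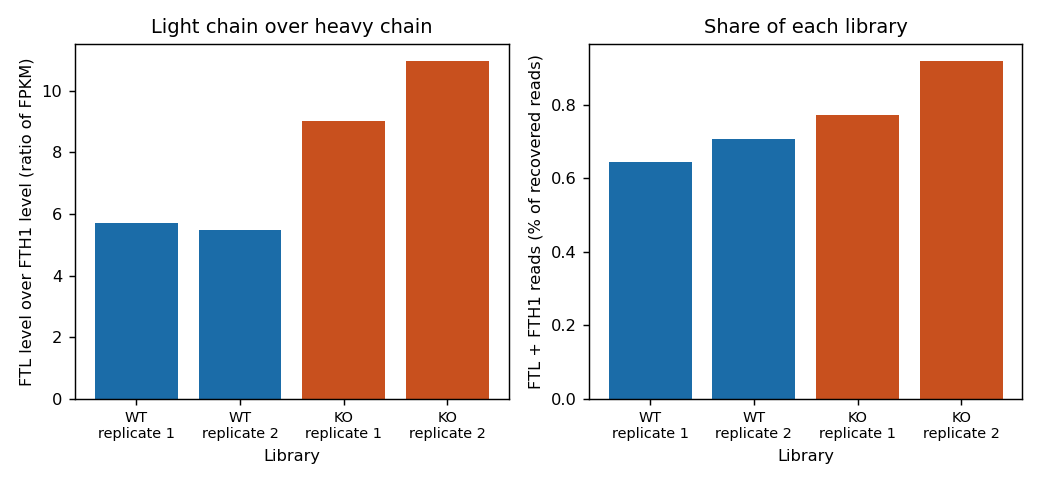
Left, FTL level divided by FTH1 level (ratio of FPKM) in each library; right, reads of FTL and FTH1 together as a percent of recovered reads. Each bar is a library and both axes start at 0. The ratio is 5.48 to 5.70 in WT and 9.03 to 10.98 in KO.

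NCOA4, the receptor that delivers ferritin to autophagy so that its iron is released (ENSG00000266412, chr10:46005088-46030714, minus strand), stood at 49.5 and 42.9 FPKM in WT. In KO it stood at 48.3 and 33.5 FPKM, overlapping WT, with a log2 difference of -0.19 (SE 0.21, limma adjusted p = 0.556). KO replicate 2 alone was low, and without it the difference was 0.066. NCOA4 and TFRC had the same order of magnitude, and their ranges over the 4 libraries overlapped.

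The sensors of cytosolic iron were ACO1, which encodes iron regulatory protein 1 and doubles as aconitase (ENSG00000122729, chr9:32384603-32454769, plus strand), and IREB2, which encodes iron regulatory protein 2 (ENSG00000136381, chr15:78437431-78501456, plus strand). ACO1 stood at 14.4 and 11.7 FPKM in WT and at 18.01 and 14.5 FPKM in KO, with a log2 difference of 0.30 (SE 0.17, limma adjusted p = 0.263). The lowest KO library and the highest WT library of ACO1 nearly met, and the difference was 0.15 without KO replicate 1 and 0.16 without WT replicate 2. IREB2 stood at 13.4 and 11.8 FPKM in WT and at 20.4 and 14.6 FPKM in KO, with a log2 difference of 0.43 (SE 0.19, limma adjusted p = 0.166). Without KO replicate 2 the IREB2 difference was 0.65 and passed (limma adjusted p = 0.0362), but without KO replicate 1 it was 0.20 (limma adjusted p = 0.412). The 2 sensors were near equal in level: ACO1 stood at 0.986 to 1.08 times IREB2 in WT and at 0.883 to 0.997 times IREB2 in KO.

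In order of mean WT level per length, the members ran FTL, FTH1, LCN2, NCOA4, TFRC, ACO1, IREB2, SLC11A2, SLC40A1 and HAMP. ACO1 and IREB2 did not differ beyond their spread in WT. In KO, LCN2 fell to the last place among the measured members, with a mean of 4.22 FPKM. By KO mean, SLC40A1 (7.58 FPKM) stood above SLC11A2 (7.06 FPKM) and IREB2 (17.5 FPKM) above ACO1 (16.3 FPKM). TFRC (48.8 FPKM) likewise stood above NCOA4 (40.9 FPKM). The KO ranges of each of these pairs overlapped.

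Some of the spread between replicates moved with gene length. Among all genes tested, the median log2 difference of KO replicate 2 from KO replicate 1 was 0.16 in the quartile of the shortest genes, up to 2339 bases, and -0.14 in the quartile of the longest, from 6909 bases. The WT libraries moved the same way, with medians of 0.080 and -0.076 for WT replicate 2 minus WT replicate 1. FTL, at 878 bases, was higher in KO replicate 2, while TFRC, IREB2, ACO1 and SLC11A2, at 7555 to 10806 bases, were lower there. NCOA4 and SLC40A1, at 4079 and 4330 bases, were lower there too, although the median of their length quartile was 0.054. How far gene length accounts for the spread of the members was not tested. The median KO minus WT difference was 0.019 in the shortest and 0.048 in the longest quartile. With a trend on length and GC content removed in each library, the log2 difference was 0.65 for FTL, 0.47 for TFRC, 0.28 for IREB2 and 0.54 for SLC40A1, and again SLC40A1 alone passed among these 4 (limma adjusted p = 0.0279).

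**Figure D3:**
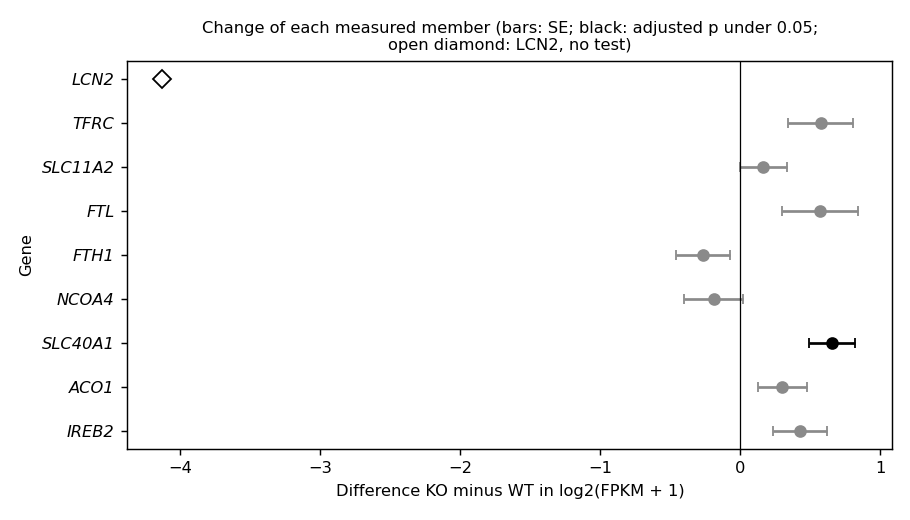
Difference between KO and WT in log2(FPKM + 1) for each measured member, with the standard error as a bar. LCN2 (open diamond, no test) lies at -4.13, SLC40A1 (black) at 0.65 passed the threshold, and the grey genes, between -0.27 and 0.57, did not.

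Of 63 other genes of iron handling, 53 were measured. Of these 5 rose and 7 fell in KO, 9.43% and 13.2% of the 53, close to the shares over all genes given above. Both KO libraries lay above both WT libraries for 18 and below for 17 of the 53, near the 34.4% and 31.3% of all genes tested. The median log2 difference was -0.0023. The groups by role that follow are small, and their counts are read against the 12.1% higher and 11.1% lower over all genes. Among uptake and carrier genes, 1 rose and 2 fell of 10 measured. SCARA5, a scavenger receptor that takes up ferritin, had the largest difference of the 53. It stood at 13.1 and 13.5 FPKM in WT and at 1.45 and 1.54 FPKM in KO, both groups tight and far apart. The mean was 8.87-fold lower in KO (log2 difference -2.52, SE 0.13, limma adjusted p = 0.00192). The SCARA5 call held under every alternative that kept all libraries, though narrowly with no filter on low values (limma adjusted p = 0.0472). When any 1 library was left out, its log2 difference was -2.54 to -2.49.

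STEAP3, the endosomal reductase that prepares iron for DMT1, fell from 20.5 and 17.6 to 11.8 and 11.2 FPKM (log2 difference -0.68, SE 0.14, limma adjusted p = 0.0262). Its call was lost without either WT replicate (limma adjusted p = 0.207 and 0.0643). STEAP2, a related metalloreductase, rose from 7.74 and 6.79 to 17.6 and 12.3 FPKM (log2 difference 0.93, SE 0.20, limma adjusted p = 0.0267). Its call was lost without WT replicate 2 (limma adjusted p = 0.0554). So the 2 reductases that passed moved in opposite directions.

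Among genes of storage, chaperoning and export, 2 rose and 0 fell of 4 measured, a number too small to set against the 12.1% and 11.1% of all genes. PCBP1, a chaperone that hands iron to ferritin and also binds RNA, rose from 32.4 and 40.8 to 74.2 and 94.8 FPKM (log2 difference 1.18, SE 0.20, limma adjusted p = 0.0142). PCBP1 is a single-exon gene, similar in sequence to PCBP2, so its count is uncertain where reads could be split. FLVCR1, known as a heme exporter, rose from 3.90 and 3.76 to 7.27 and 6.19 FPKM (log2 difference 0.67, SE 0.14, limma adjusted p = 0.0249). The FLVCR1 call was lost without WT replicate 1, WT replicate 2 or KO replicate 1 (limma adjusted p = 0.0973, 0.109 and 0.0569).

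Of 6 measured regulators, 0 passed in limma. FBXL5, the ubiquitin ligase subunit that senses iron and degrades iron regulatory protein 2, stood at 11.4 and 10.2 FPKM in WT and at 15.1 and 11.1 FPKM in KO, with overlapping groups. NEO1, neogenin, a co-receptor in hepcidin control, stood at 24.2 and 20.7 FPKM in WT and at 19.4 and 15.2 FPKM in KO. BMP6, a ligand that induces hepcidin, was named after its values were seen. It stood at 4.18 and 2.48 FPKM in WT and at 1.36 and 1.93 FPKM in KO (limma adjusted p = 0.0918), and passed without WT replicate 2 and with precision weights (limma adjusted p = 0.0207 and 0.0467).

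Of 14 measured heme genes, 1 rose and 1 fell. PGRMC1, a membrane heme-binding protein, rose from 81.5 and 76.5 to 160.6 and 139.7 FPKM (log2 difference 0.92, SE 0.16, limma adjusted p = 0.0151). Its call was lost without either WT replicate (limma adjusted p = 0.0582 and 0.0664). SLC48A1, which carries heme out of lysosomes, fell from 19.6 and 23.6 to 11.7 and 12.5 FPKM (log2 difference -0.78, SE 0.15, limma adjusted p = 0.0201). Its call was lost without WT replicate 2 (limma adjusted p = 0.126), and its annotation overlaps HDAC7 and RAPGEF3.

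Of 20 measured genes of mitochondrial iron and iron-sulfur clusters, 1 rose and 4 fell, 5.0% and 20.0% beside 12.1% and 11.1% of all genes. FDXR, the reductase that feeds electrons to ferredoxins, fell from 24.8 and 26.9 to 6.63 and 10.9 FPKM (log2 difference -1.49, SE 0.23, limma adjusted p = 0.0125). ISCU, the scaffold on which clusters are built, fell from 29.2 and 26.7 to 10.7 and 12.9 FPKM (log2 difference -1.18, SE 0.15, limma adjusted p = 0.00753). When any 1 library was left out, the log2 difference was -1.81 to -1.17 for FDXR and -1.31 to -1.06 for ISCU.

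SLC25A37, the mitochondrial importer mitoferrin 1, was 1.58-fold lower in KO, from 19.02 and 18.7 to 11.1 and 12.7 FPKM (limma adjusted p = 0.0287), and ISCA1, a late assembly factor, 1.48-fold lower (limma adjusted p = 0.036). MMS19, which hands clusters to DNA enzymes, rose 1.60-fold (limma adjusted p = 0.0307). The calls of SLC25A37 and MMS19 were lost without either WT replicate or KO replicate 1, and that of ISCA1 without any 1 library (limma adjusted p = 0.0538 to 0.261). With no filter on low values, SCARA5 alone of the 12 kept its call, and the other 11 had limma adjusted p = 0.052 to 0.104.

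**Figure D4:**
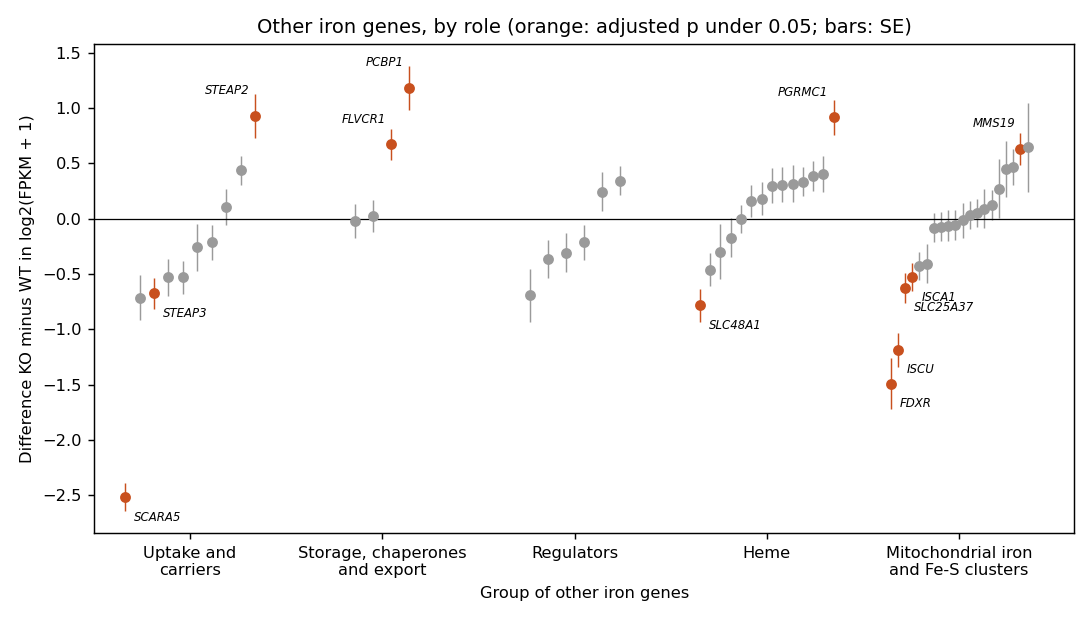
Difference between KO and WT in log2(FPKM + 1) for the 53 other iron genes measured, by role, with the standard error as a bar; TFR2 belongs to 2 groups and is drawn in both. Orange genes passed the threshold, 5 above 0 and 7 below, with SCARA5 the lowest at -2.52 and PCBP1 the highest at 1.18.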

How the data were processed

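RNA of 2 WT and 2 KO libraries of HFL1 cells was sequenced as paired-end reads and aligned with HISAT2 2.0.5, per the labels' protocols and the submitters' processing notes, which name the builds hg38 and mm10. The values used are the FPKM values the authors deposited. For the counting tool, annotation and scaling, nothing is given in the sources used here. The scaling shows in the values. Among genes above 0 in every library, the median ratio to the gene's own geometric mean was 1.0046 in all 4 libraries. The deposited values were thus already on a median-of-ratios scale, not scaled to total reads. Coordinates of all 58735 genes equalled those of GENCODE 29 on GRCh38. In each library the product of FPKM and gene length rose in equal steps, with 100% of values at whole steps (tolerance 0.01), and the steps were taken as recovered reads. The FPKM values carry no depth of their own, and floors of 3 reads cover counting error only.

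Genes with at least 1 FPKM in at least 2 libraries, 14100 in all, were tested as log2(FPKM + 1) with limma 3.58.1 in R 4.3.3, with an intensity-dependent prior and no replicate block. Calls were made at a Benjamini-Hochberg adjusted p under 0.05 over all genes. The fit was also run on simulated counts, drawn independently for each library with a fixed extra spread for all genes. Those counts held no shared replicate or length effects, so that run does not show how the fit performs on these data. The members and the lists of other iron genes were chosen with earlier results of these data known.

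Named genes were the members, CALU, up to 6 genes past the threshold in each group of other iron genes (the 2 most abundant if under 2 passed), summed FTH1 and FTL pseudogenes, and the 4 genes closest to LCN2. Some genes that were to be named are not reported here and are left out of the counts of other iron genes. Alternatives were a pseudocount of 0.1, no filter on low values, rescaling to total reads, a replicate block and leaving out each library. Precision weights on recovered reads (limma's voom) and removal of a loess trend on length and GC content were added after seeing the data.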

Additional observations from a re-analysis of the deposited data

How the results depend on the processing

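Over all genes, 1711 rose and 1572 fell. With no filter on low values 183 rose and 193 fell, members other than LCN2 called numbered 0, and other iron genes called numbered 0 higher and 1 lower. With a replicate block 2968 rose and 2577 fell, 3 members other than LCN2 were called (IREB2, SLC40A1 and TFRC, limma adjusted p = 0.0371, 0.0137 and 0.00974), and 10 other iron genes were higher and 14 lower, among them the regulators NEO1 and BMP6 (limma adjusted p = 0.0442 and 0.0491) and SLC39A14 (limma adjusted p = 0.0056). The labels do not say that replicate numbers pair libraries. Deviations of same-numbered libraries correlated at 0.41 across genes, which are not independent, and there are only 2 pairs. With precision weights 2 members (FTL and SLC40A1) were called and 12 other iron genes were lower. With length and GC content removed 9 other iron genes were higher and 11 lower. Leaving out 1 library gave 898 (without WT replicate 1) to 1509 genes higher, 574 (without WT replicate 1) to 1592 lower, 0 to 3 members other than LCN2, 1 to 5 other iron genes higher and 4 to 8 lower. Without WT replicate 2 the genes called were 1101 and 732. The NCOA4 difference was -0.45 without KO replicate 1 to 0.066 without KO replicate 2, where it changed sign. A pseudocount of 0.1 and rescaling to total reads moved no count by over 1.5 times. The no-filter setting tests more genes, and the SE changed with it, from 0.27 to 1.37 for FTL and from 0.15 to 0.13 for ISCU. The left-out libraries leave fewer samples. The cause of the changes in calls was not tested for any setting. The planned tests with count models were not run, since the deposited values are FPKM. Among the members, HAMP was not detectable at this depth.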

Other observations

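The 8 enzymes of heme synthesis, a set picked out after the values were seen, lay mostly on the same side. For 7 of the 8 both KO libraries were above both WT libraries, beside 34.4% of all genes tested, the exception being UROS, and none of the 8 passed in limma, with adjusted p from 0.0888 to 0.993. CPOX stood at 12.5 and 11.3 FPKM in WT and at 15.6 and 16.1 FPKM in KO, and PPOX at 2.52 and 2.65 FPKM in WT and 3.23 and 4.33 FPKM in KO. HMOX1, the heme-degrading enzyme, overlapped between the groups, at 48.3 and 50.3 FPKM in WT and 38.01 and 49.9 FPKM in KO. SLC22A17, known as a receptor for lipocalin 2, overlapped too, at 4.14 and 5.23 FPKM in WT and 3.003 and 4.59 FPKM in KO. SLC39A14, a transporter of iron not bound to transferrin, stood at 59.5 and 43.1 FPKM in WT and at 32.9 and 28.2 FPKM in KO, just outside the threshold (limma adjusted p = 0.0554). SLC39A14 passed under 5 of the 10 alternatives run, and limma adjusted p ranged from 0.0056 to 0.336 over the 10. These genes were named after their values were seen. Of the 10 listed iron genes that were not tested, LTF and FTMT had 0 reads in every library.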
